A study of Mus musculus with 6 samples.

Results

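Forkhead (Fox) genes encode transcription factors, and the open chromatin around them was compared between wild-type (WT) and *Hox13*-/- distal limb buds. Of 61954 merged ATAC-seq peaks, 406 had their midpoint within 100 kb of the transcription start of a protein-coding *Fox* gene. The genes taken were those named Fox, a letter and a number on the 19 autosomes, 41 in all, and each peak was given to the gene with the nearest start. *Foxa2* had no peak in its window, so 40 genes are described. A promoter peak had its midpoint within 1 kb of a forkhead start, and there were 50 of them at 23 genes. Of these, 5 were also within 1 kb of a start of another protein-coding gene. A further 107 peaks lay within 1 kb of the start of another protein-coding gene, and the other 249 were distal. Within 100 kb of a single forkhead gene lay 368 peaks, while 26 were near 2 such genes and 12 near 3.

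ATAC-seq maps open chromatin as the places that the transposase Tn5 can reach. The mouse embryos were at E11.5 and of a mixed C57Bl/6 x 129 background, and a library took 50000 cells from the distal forelimb buds, left and right combined, of 1 embryo. There were 2 libraries from WT embryos and 2 from *Hox13*-/- embryos, which lack functional *Hoxa13* and *Hoxd13* in all their cells. HOXA13 and HOXD13 are the homeodomain factors of the future digit territory. The deposited value is the regularized log (rLog), which is on a log2 scale, scaled for library size and shrunk towards the mean of each peak, and the read depth under each peak is therefore unknown. Differences are rLog in *Hox13*-/- minus rLog in WT, and a peak was called lower or higher at an adjusted p under 0.05 (limma on all 61954 peaks, two-sided, Benjamini-Hochberg).

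Forkhead proteins bind DNA through a winged-helix domain, and several of them can bind sites in closed chromatin and open them. In embryonic mesenchyme the FoxC, FoxD and FoxF classes pattern mesoderm, vessels and skeleton, and FoxA proteins act mainly in endoderm. FoxO proteins pass on signals of the insulin and IGF pathway, since AKT phosphorylates them and sends them out of the nucleus, and FoxP proteins are repressors that act as dimers in lung, heart, nerve and muscle.

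The 300 bp at the middle of 5 distal peaks are shown because the results below turn on them, namely the largest decrease, the largest increase, a member of the higher pair at *Foxk1*, and the *Foxp1* distal peaks with the largest decrease and with the highest WT level among the lower ones. They were chosen after their values had been seen, and they do not stand for lower or higher peaks in general. They are reference sequences of mm10 on the plus strand, 5′ to 3′. Capitals mark CAATAAA as well as CCATAAA, words of the kind that HOX13 proteins prefer, and TAATAAA, a related word that was added after the *Foxf2* window had been read, each in either orientation. At the last 2 peaks none of these words was found. Among the 10 largest decreases near forkhead genes 3 windows held a HOX13 word or TAATAAA, and among the 10 largest increases 2 did (*Foxf2* +90.0 kb and *Foxp2* +1.4 kb). Over the whole series the share was 40.5% in distal peaks called lower, 25.2% in those called higher and 5.41% in all promoter peaks. The decreases include promoter peaks while the increases are all distal, so these counts are not like for like.
Foxf2 −21.7 kb, chr13:31603956-31604255: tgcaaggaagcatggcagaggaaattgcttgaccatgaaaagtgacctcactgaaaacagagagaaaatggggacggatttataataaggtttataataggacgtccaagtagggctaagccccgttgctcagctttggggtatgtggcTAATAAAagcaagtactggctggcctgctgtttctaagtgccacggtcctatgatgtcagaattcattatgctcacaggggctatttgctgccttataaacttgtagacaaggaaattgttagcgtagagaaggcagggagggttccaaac
Foxp1 +14.7 kb, chr6:99233461-99233760: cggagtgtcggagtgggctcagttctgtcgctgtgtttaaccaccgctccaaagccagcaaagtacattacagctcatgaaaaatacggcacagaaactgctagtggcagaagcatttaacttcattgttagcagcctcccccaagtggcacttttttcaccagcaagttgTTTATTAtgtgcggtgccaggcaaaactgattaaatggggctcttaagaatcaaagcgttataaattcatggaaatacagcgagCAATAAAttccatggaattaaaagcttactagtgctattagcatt
Foxp1 +36.0 kb, chr6:99484880-99485179: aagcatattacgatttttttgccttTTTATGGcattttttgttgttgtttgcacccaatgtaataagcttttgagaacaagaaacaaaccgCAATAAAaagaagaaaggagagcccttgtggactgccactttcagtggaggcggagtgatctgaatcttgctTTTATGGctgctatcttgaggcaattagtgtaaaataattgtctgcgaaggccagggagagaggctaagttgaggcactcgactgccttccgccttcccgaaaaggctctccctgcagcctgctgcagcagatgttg
Foxn3 −6.9 kb, chr12:99570324-99570623: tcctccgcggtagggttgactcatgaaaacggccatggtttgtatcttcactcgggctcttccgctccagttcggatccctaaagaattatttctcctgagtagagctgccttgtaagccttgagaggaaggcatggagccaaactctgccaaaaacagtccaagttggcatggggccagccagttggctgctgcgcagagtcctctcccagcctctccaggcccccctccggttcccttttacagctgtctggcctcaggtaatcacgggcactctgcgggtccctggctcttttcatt
Foxk1 −14.5 kb, chr5:142386843-142387142: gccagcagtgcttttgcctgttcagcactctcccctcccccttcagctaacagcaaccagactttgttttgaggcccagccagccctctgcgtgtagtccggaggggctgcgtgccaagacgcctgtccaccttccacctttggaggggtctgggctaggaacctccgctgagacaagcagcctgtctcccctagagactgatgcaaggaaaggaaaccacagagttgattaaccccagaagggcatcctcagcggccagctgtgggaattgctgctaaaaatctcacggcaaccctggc

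In *Hox13*-/- distal limbs, 33 of the 406 forkhead peaks were lower and 35 were higher. Over all peaks of the series the same test called 19.7% of peaks, 8.31% lower and 11.4% higher, while it called 16.7% of the forkhead peaks, so the forkhead windows were called no more often than the rest of the genome. The calls fell at 27 of the 40 genes, of which 9 had lower calls, 8 had higher calls and 10 had both. At the 68 called peaks both *Hox13*-/- libraries lay outside the range of the WT libraries. Called peaks nearly always show such a separation, as at 3481 of the 3518 distal peaks called lower over the whole series. The same was true of 6729 of the 6754 called higher. The reverse does not hold, since far more peaks were apart than were called. Libraries apart in this way were seen at 152 forkhead peaks towards lower and at 93 towards higher values, where the shares over all peaks were 29.6% and 29.7%. At an unadjusted p under 0.05 the lower forkhead peaks numbered 67 and the higher ones 55, where all 61954 peaks had 9229 lower and 10480 higher. A difference beyond 1 was reached by 0 forkhead peaks in either direction at an adjusted p under 0.05 by limma. Since the values are shrunken, that bar is stricter than an unshrunken fold change of 2. Over all peaks 0.224% were lower and 0.313% were higher beyond 1. In fits that left out a library in turn calls were lost, and calls over all peaks of the series fell too. Such a fit has 1 library in a genotype and is less precise by design. A lost call therefore does not by itself single out the library left out.

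Promoter and distal peaks were counted apart. Among the 50 forkhead promoter peaks 6 were lower and 0 were higher by limma, where all 19138 promoter peaks were called at 10.0%, 8.51% lower and 1.49% higher. At an unadjusted p under 0.05 the forkhead counts were 10 and 0, where all promoter peaks had 3648 lower and 499 higher. The median difference of the forkhead promoter peaks was −0.10 and that of all promoter peaks −0.11. Among the 249 distal forkhead peaks 18 were lower and 33 were higher, which is 20.5% called, where all 42816 distal peaks were called at 24.0%, 8.22% lower and 15.8% higher. Their median difference was 0.01, and it was 0.06 over all distal peaks. The balance depends on the scaling, since with each library centred on its median 46 forkhead peaks were lower and 25 higher in all, and 28 were lower and 25 higher among the distal ones, with a distal median of −0.02. Over all peaks the balance turned in the same way, from 5146 lower and 7040 higher to 6811 lower and 6017 higher. The 107 promoters of other genes in the windows had 9 lower and 2 higher calls and a median difference of −0.14. Both classes thus lay near the genome-wide values of their class, promoters shifted to lower and distal peaks spread both ways. Median GC content was 69.3% in the promoter and 52.4% in the distal forkhead peaks, and the part of GC content in the difference between the classes was not tested.

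**Figure D1:**
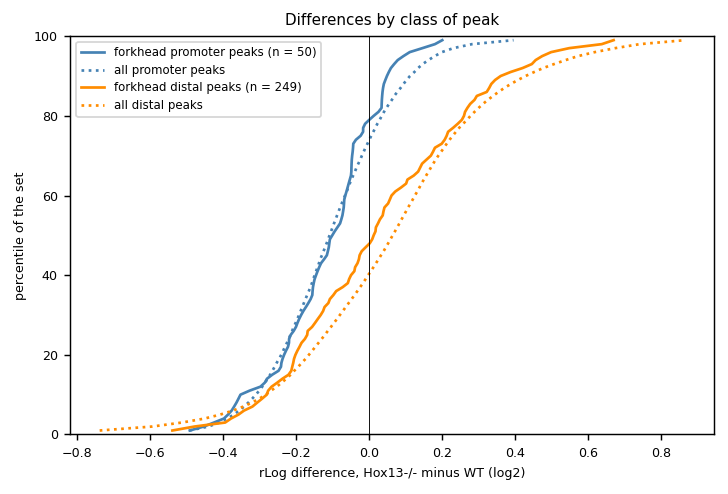
Cumulative distribution of the rLog difference, *Hox13*-/- minus WT on the log2 scale (x axis), as the percentile within each set (y axis), for forkhead promoter and distal peaks (solid) and all promoter and distal peaks (dotted). The promoter curves lie together around a median near −0.10, and the forkhead distal curve is steeper than that of all distal peaks at both ends.

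**Figure D2:**
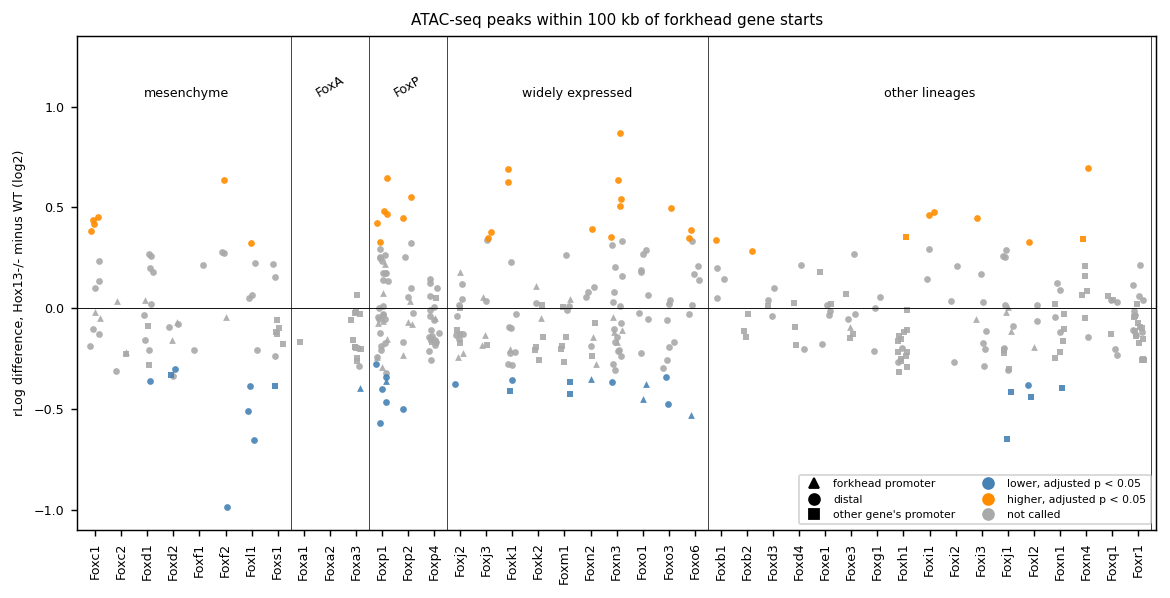
rLog difference of each of the 406 forkhead peaks (y axis, *Hox13*-/- minus WT, log2), by gene and role group (x axis). Triangles are forkhead promoters, circles distal peaks and squares promoters of other genes, coloured where the adjusted p was under 0.05; called triangles lie below 0, and the peak at *Foxf2* at −0.99 stands below all others.

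The tissue was checked by the promoter peaks of marker genes. All 6 limb mesenchyme markers had a promoter peak (mean rLog 5.95 to 6.09 over the libraries), of which *Twist1* was lower (−0.40) and none was higher. Ectoderm had a promoter peak at 2 of 6 markers (mean rLog 3.08 to 3.28), endothelium at 2 of 5 (6.09 to 6.28), blood at 1 of 4 (6.70 to 7.00), and none of these was called. Of 4 muscle precursor markers only *Met* had a promoter peak, and it was higher by 0.44, with rLog values of 5.27 and 5.13 in WT and of 5.58 and 5.70 in *Hox13*-/-. The part of these cells in the forkhead differences was not tested. In libraries of many cells together, fewer cells of a type and less accessibility per cell cannot be told apart. At the targeted genes the promoter peak of *Hoxa13* differed by −0.08 (adjusted p = 0.71, limma) and the pair of peaks at the start of *Hoxd13* by −0.26 and −0.52, the latter called lower (adjusted p = 6.1e-04, limma) except without *Hox13*-/- replicate 2 (−0.62 to −0.41 without each library). Accessibility does not show whether the genes work, so these peaks give no check of the genotype labels.

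The mesenchymal genes *Foxc1*, *Foxc2*, *Foxd1*, *Foxd2*, *Foxf1*, *Foxf2*, *Foxl1* and *Foxs1* had 59 peaks, of which 8 were lower and 6 were higher. These shares of 13.6% and 10.2% stand beside 8.31% and 11.4% over all peaks. None of the group's 8 promoter peaks was called by limma, in either direction, where 10.0% of all promoter peaks were called. At an unadjusted p under 0.05 by limma the promoter counts were also 0 and 0. The group's 41 distal peaks divided into 6 lower and 6 higher (14.6% each), where all distal peaks had 8.22% and 15.8%. Under median centring these distal counts were 8 and 5. The group held the largest difference of all forkhead peaks, in the cluster of *Foxq1*, *Foxf2* and *Foxc1* on chromosome 13. *Foxf2*, which acts in gut and palate mesenchyme, had this peak at −21.7 kb from its start, where negative distances are upstream (chr13:31603876-31604335, intergenic, also +48.0 kb from *Foxq1*). Its rLog was 5.88 and 6.06 in WT and 4.98 and 4.99 in *Hox13*-/-. The WT libraries were thus both far above the mutant ones, which nearly coincided. The difference was −0.99 (SE 0.13, limma adjusted p = 6.6e-12), a fold of 0.505 on the shrunken scale. It ran from −1.08 to −0.90 when each library was left out. The peak had been found by the peak caller in both WT libraries and in neither *Hox13*-/- library. Its 300 bp window holds TAATAAA and none of the other words. The *Foxf2* promoter peak, which was low, had rLog values of 2.48 and 2.35 in WT and of 2.23 and 2.52 in *Hox13*-/-, and the genotypes overlapped.

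Farther along the same cluster the called peaks were higher. A peak at +90.0 kb from *Foxf2* and −90.8 kb from *Foxc1* (chr13:31715650-31716001) had rLog values of 5.25 and 5.15 in WT and of 5.76 and 5.92 in *Hox13*-/-. The difference of 0.64 (SE 0.13, limma adjusted p = 2.6e-05) held without each library, and the window of this peak holds 1 HOX13 word. *Foxc1*, required for skeletal, eye and vessel development, had 12 peaks, 4 of them higher and none lower, also under both other scalings. These lay at +8.3, +12.1, +15.8 and +47.2 kb, downstream of the gene, the last pair in introns of *Gmds*, which encodes an enzyme of GDP-fucose synthesis. Their differences were 0.45, 0.44, 0.38 and 0.42. The strongest of them, at +47.2 kb, had rLog values of 7.70 and 7.50 in WT and of 8.00 and 8.04 in *Hox13*-/-. The genotypes were apart at all 4. None of these calls held without *Hox13*-/- replicate 2, and some were also lost without WT replicate 1 (+12.1 and +15.8 kb) or WT replicate 2 (+15.8 and +47.2 kb), with differences between 0.24 and 0.53 over these fits. The strongest *Foxc1* promoter peak differed by −0.02 and its libraries overlapped, with rLog values of 6.24 and 6.39 in WT and of 6.38 and 6.22 in *Hox13*-/-.

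On chromosome 8 the cluster of *Foxf1*, *Foxc2* and *Foxl1* had most of its called peaks downstream of *Foxl1*, a regulator of gut mesenchyme. *Foxl1* had 8 peaks, of which 3 were lower and 1 was higher, all in an intron of the predicted gene *Gm20388*. The peak at −2.3 kb from *Foxl1* (chr8:121125433-121125869), which also lies +9.5 kb from *Foxc2* and +41.3 kb from *Foxf1*, had rLog values of 5.85 and 5.90 in WT and of 5.16 and 5.28 in *Hox13*-/-. Replicates lay close together and the genotypes far apart, with a difference of −0.65 (SE 0.13, limma adjusted p = 1.4e-05) that held without each library. The window of this peak holds no HOX13 word and no TAATAAA. At +53.1 kb the difference was −0.51, with rLog values of 5.18 and 4.76 in WT and of 4.54 and 4.38 in *Hox13*-/-. That call was lost without WT replicate 1 or *Hox13*-/- replicate 2 (−0.72 to −0.29 over the 4 fits). The peak at +92.2 kb was lower by −0.38 and the peak at +42.3 kb higher by 0.32. The first of these was lost without either WT library or *Hox13*-/- replicate 2 (−0.47 to −0.30), and the second without either WT library or *Hox13*-/- replicate 1 (0.20 to 0.45) and under median centring (0.29). *Foxf1*, a factor of lateral plate mesoderm and lung vessels, had 2 peaks of its own, neither nearer than 50.4 kb. *Foxc2*, needed for lymphatic vessels and the axial skeleton, had 4 peaks of its own, and none of the peaks given to either gene was called. The called *Foxl1* peaks at −2.3, +42.3 and +53.1 kb, however, also lie within 100 kb of both starts. The latter pair are +54.1 and +64.9 kb from *Foxc2* and +85.9 and +96.7 kb from *Foxf1*. They are counted at *Foxl1* because its start is nearest.

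*Foxd1*, a marker of renal stroma, had 1 lower peak, at −18.0 kb (−0.36), whose call was lost without each library in turn (−0.38 to −0.34). *Foxd2* had a lower distal peak at +54.6 kb (−0.30), which is also +71.7 kb from *Foxe3*, and a lower peak at the promoter of *Gm12830* (−0.33). The first was lost without WT replicate 1 or either *Hox13*-/- library (−0.43 to −0.18) and the second without WT replicate 1 or *Hox13*-/- replicate 1 (−0.46 to −0.21) and under quantile normalization (−0.33). At *Foxs1* the promoter of *Pdrg1* was lower (−0.38), a call lost without WT replicate 1 or either *Hox13*-/- library (−0.55 to −0.22).

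**Figure D3:**
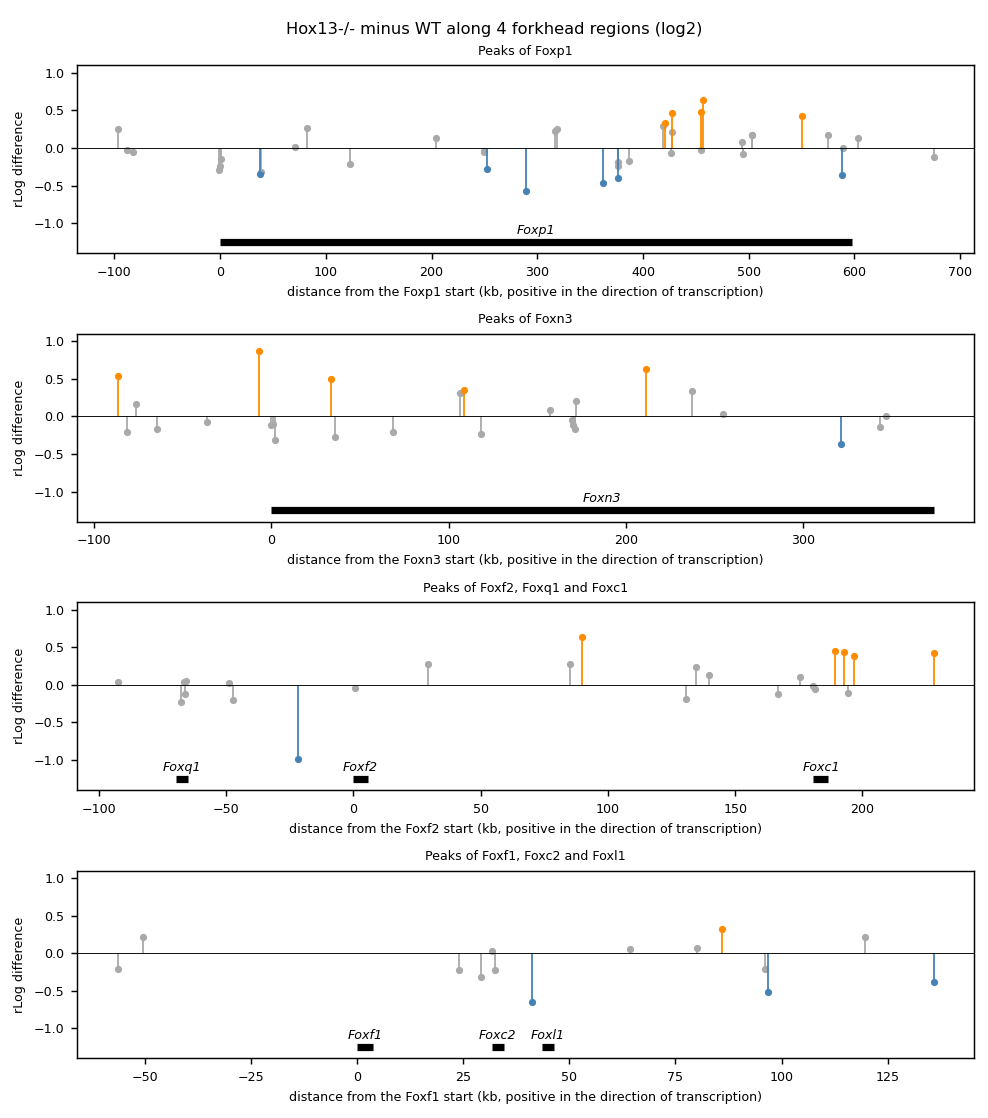
rLog difference (y axis, *Hox13*-/- minus WT, log2) of peaks along 4 forkhead regions, against the distance in kb from the outermost start of the first gene named on each x axis, with gene bodies as black bars. Blue peaks were lower and orange ones higher at an adjusted p under 0.05; the lower and higher distal calls within *Foxp1* occupy different stretches, with the lower internal promoter beyond both at 587.9 kb, and the peak at −21.7 kb from *Foxf2* is the deepest.

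FoxA genes, pioneer factors of endoderm, had few peaks of their own here. *Foxa2* had no peak within 100 kb, *Foxa1* had 1, at the start of *Ttc6*, and *Foxa3* had 15, of which 12 were promoters of other genes. The *Foxa3* promoter peak (chr7:19024123-19024485) was lower, with rLog values of 7.17 and 7.15 in WT and of 6.70 and 6.82 in *Hox13*-/-. It lies nearer to the start of *Sympk*, a scaffold of mRNA 3′ end formation, than to that of *Foxa3*, so its signal cannot be assigned to *Foxa3*. The difference was −0.40 (SE 0.13, limma adjusted p = 0.014) and the call was lost without WT replicate 1 or *Hox13*-/- replicate 1 (−0.46 to −0.34).

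The FoxP genes had 77 peaks, 7 lower and 7 higher (9.09% each), where all peaks had 8.31% and 11.4%. Among all forkhead genes *Foxp1* had the most peaks and the most calls. Its window is also wide, since it covers 100 kb around each of 22 starts. *Foxp1*, a repressor needed in heart, B cells and the motor neurons that innervate limbs, had 41 peaks, of which 8 were promoters of its many starts and 33 were distal, with 6 lower and 5 higher calls (8 and 4 under median centring). The lower and higher distal calls did not mix along the gene, whose body spans 597.4 kb. Counted from its outermost start, the 5 lower ones lay at 37.7, 252.6, 289.1, 362.5 and 376.3 kb and the 5 higher ones at 421.1, 427.8, 454.6, 456.9 and 550.1 kb, while the lower internal promoter peak lay beyond them at 587.9 kb. In the first 400 kb of the gene 12 of 17 distal peaks had a negative difference (median −0.19), and between 400 and 600 kb 10 of 11 had a positive one (median 0.30). This border was chosen after the values had been seen, so no test is given.

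On the lower side, the peak at +14.7 kb from the nearest *Foxp1* start (chr6:99233417-99233803) had rLog values of 5.47 and 5.47 in WT and of 5.01 and 4.79 in *Hox13*-/-. The WT replicates coincided, and the difference of −0.57 (SE 0.13, limma adjusted p = 2.5e-04) held without each library. Its window holds CAATAAA and TAATAAA, while that of the lower peak at +2.8 kb holds no HOX13 word and no TAATAAA. The strongest lower peak, at +36.0 kb (chr6:99484442-99485616), had rLog values of 8.00 and 8.01 in WT and of 7.56 and 7.76 in *Hox13*-/-, a difference of −0.34, and its window holds 3 HOX13 words. Its call was lost without either WT library or *Hox13*-/- replicate 1 (−0.44 to −0.24) and under quantile normalization (−0.27). The peak at +2.8 kb had rLog values of 6.96 and 6.89 in WT and of 6.42 and 6.49 in *Hox13*-/- (difference −0.47), lost without *Hox13*-/- replicate 1 (range −0.50 to −0.43). The lower peaks at +16.6 kb (−0.40, lost without WT replicate 2 or *Hox13*-/- replicate 2) and −3.5 kb (−0.28, lost without each library in turn and under quantile normalization) ran from −0.53 to −0.28 and from −0.33 to −0.22. An internal promoter (chr6:98934675-98934913) was also lower by −0.36, with a call that held only without *Hox13*-/- replicate 1 (−0.46 to −0.27).

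On the higher side, the peak at −21.3 kb from the nearest *Foxp1* start (chr6:99065678-99065922) was low, at 3.89 and 3.67 in WT against 4.41 and 4.44 in *Hox13*-/-, a difference of 0.65 (SE 0.13, limma adjusted p = 1.3e-05). A neighbour at −23.6 kb had rLog values of 4.74 and 4.72 in WT and of 5.25 and 5.17 in *Hox13*-/-, higher by 0.48. Both calls held without each library. Other higher peaks of *Foxp1* lay at +31.1 kb (0.42, lost without WT replicate 2 or *Hox13*-/- replicate 2, 0.35 to 0.49), +1.2 kb (0.47, lost without WT replicate 1, 0.41 to 0.52) and −5.4 kb (0.33, lost without each library in turn, 0.31 to 0.35, and under both other scalings, 0.29 and 0.32). The strongest *Foxp1* promoter peak, with rLog values of 6.93 and 6.87 in WT and of 6.72 and 6.94 in *Hox13*-/-, overlapped between the genotypes.

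*Foxp2*, known from speech and motor learning, had 13 peaks with 1 lower and 2 higher calls, all in its introns. The peak at −54.3 kb from the nearest start (chr6:15130202-15130437) had rLog values of 4.64 and 4.74 in WT and of 4.22 and 4.16 in *Hox13*-/-, a difference of −0.50 (SE 0.13, limma adjusted p = 0.0016) that held without each library. At +1.4 kb the WT libraries, at 5.41 and 5.85, were far apart and the *Hox13*-/- libraries, at 6.17 and 6.19, were close, which gave 0.55. That call was lost without WT replicate 1 (0.33 to 0.77). The window of this peak holds 1 HOX13 word and TAATAAA. A peak at −2.6 kb was higher by 0.45, lost without WT replicate 1 or *Hox13*-/- replicate 2 (0.40 to 0.50). *Foxp4*, a factor of lung and gut epithelium, had 23 peaks and no call, with differences from −0.25 to 0.14.

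**Figure D4:**
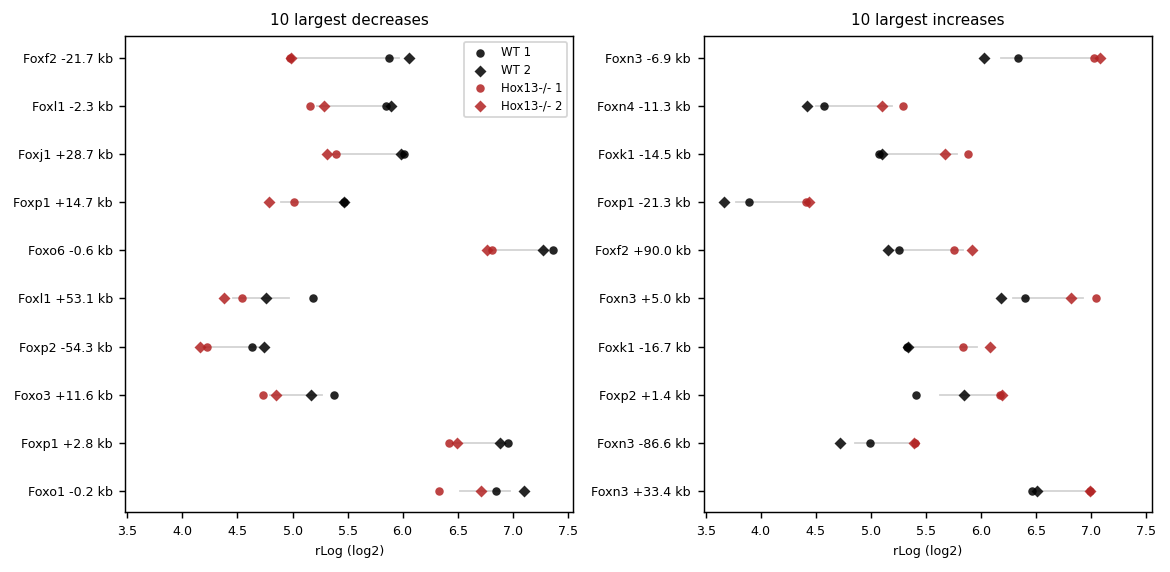
rLog (x axis, log2) in each of the 4 libraries for the 10 called forkhead peaks with the largest decreases and the 10 with the largest increases, labelled by gene and distance from its nearest start. WT libraries are dark and *Hox13*-/- libraries red, circles are replicate 1 and diamonds replicate 2, and grey lines join the genotype means. Only peaks at which the genotypes do not overlap were taken.

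The genes grouped as widely expressed (*Foxo1*, *Foxo3*, *Foxo6*, *Foxk1*, *Foxk2*, *Foxj2*, *Foxj3*, *Foxm1*, *Foxn2* and *Foxn3*) had 121 peaks, 12 lower and 13 higher. Expression was not measured by these libraries, and *Foxo6* was placed in the group as a FoxO gene. Of the group's 21 promoter peaks 4 were lower (19.0%), where 8.51% of all promoter peaks were. Of its 80 distal peaks 13 were higher (16.25%) and 5 lower (6.25%), where all distal peaks had 15.8% and 8.22%. Under median centring the distal counts were 10 and 9. *Foxn3*, a repressor linked to the cell cycle checkpoint, held more of the higher peaks than any other of these genes. With 14 starts it also has a wide window. Of its 26 peaks 5 were higher and 1 was lower, and under median centring 4 were higher and 4 lower. The peak at −6.9 kb from the outermost *Foxn3* start (chr12:99570191-99570755, intergenic) had rLog values of 6.34 and 6.03 in WT and of 7.03 and 7.08 in *Hox13*-/-. It was the largest increase near any forkhead gene, at 0.87 (SE 0.13, limma adjusted p = 8.7e-10), a fold of 1.83 on the shrunken scale. The difference ran from 0.72 to 1.03 when each library was left out. None of the 3 HOX13 words, nor TAATAAA, is in its window.

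Within *Foxn3*, the intronic peak at +5.0 kb from the nearest start (chr12:99351736-99352391) had rLog values of 6.40 and 6.19 in WT and of 7.05 and 6.82 in *Hox13*-/-, higher by 0.64. The peak at +33.4 kb (chr12:99529731-99530493) was tight in both genotypes, at 6.47 and 6.51 in WT and at 7.00 and 6.99 in *Hox13*-/-, higher by 0.50 (SE 0.13, limma adjusted p = 0.0010). Both held without each library. The peak at −86.6 kb, with rLog values of 4.99 and 4.72 in WT and of 5.40 and 5.40 in *Hox13*-/-, was higher by 0.54 and lost its call without WT replicate 2 (0.41 to 0.68). The peak at −4.7 kb was higher by 0.36 (0.21 to 0.50) and the lower peak at +49.0 kb differed by −0.37 (−0.50 to −0.24). Both were lost without WT replicate 1 or *Hox13*-/- replicate 1, and the former also under median centring (0.32) and quantile normalization (0.33). The 4 *Foxn3* promoter peaks were not called.

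*Foxk1*, a repressor of autophagy genes found in muscle progenitors, had 13 peaks, 2 higher and 2 lower. The higher ones are neighbours upstream of the gene, at −16.7 kb (chr5:142384579-142385099) and −14.5 kb (chr5:142386745-142387239). The first had rLog values of 5.33 and 5.34 in WT and of 5.84 and 6.09 in *Hox13*-/-, a difference of 0.63 (SE 0.13, limma adjusted p = 3.3e-05). The second had values of 5.07 and 5.11 in WT and of 5.89 and 5.68 in *Hox13*-/-, a difference of 0.69 (SE 0.13, limma adjusted p = 4.0e-06). WT replicates coincided at both, and both calls held without each library. A stronger peak farther upstream, at −33.9 kb, went the other way, with rLog values of 7.83 and 7.61 in WT and of 7.44 and 7.29 in *Hox13*-/-, a difference of −0.35. Its call was lost without WT replicate 1 or either *Hox13*-/- library (−0.46 to −0.24) and under quantile normalization (−0.29). The promoter of *Ap5z1* was lower by −0.41, lost without WT replicate 2 or *Hox13*-/- replicate 1 (−0.55 to −0.27).

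The FoxO genes carried 3 of the 6 lower promoter peaks. *Foxo6*, a FoxO factor known from neurons and metabolism, had its promoter peak (chr4:120287626-120288254) at 7.37 and 7.27 in WT and at 6.81 and 6.77 in *Hox13*-/-. The genotypes lay far apart relative to their replicates, and the difference of −0.53 (SE 0.13, limma adjusted p = 4.3e-04) held without each library. Its distal peaks at +27.5 kb (0.39) and +24.9 kb (0.35) were higher. The first was lost without WT replicate 2 or *Hox13*-/- replicate 1 (0.25 to 0.53) and under quantile normalization (0.35), and the second without either WT library or *Hox13*-/- replicate 1 (0.23 to 0.47) and under median centring (0.31). *Foxo1*, the main FoxO target of insulin signalling, had a promoter peak at its start (chr3:52267790-52268533) with rLog values of 6.85 and 7.10 in WT and of 6.33 and 6.71 in *Hox13*-/-. The spread within each genotype was wide there, and the difference of −0.45 lost its call without WT replicate 2 or *Hox13*-/- replicate 1 (−0.64 to −0.26). A second *Foxo1* promoter peak, in an exon, was lower by −0.38, with a call that held only without WT replicate 2 (−0.47 to −0.28).

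*Foxo3*, a stress and longevity factor, was not called at its promoter, with rLog values of 6.58 and 6.49 in WT and of 6.50 and 6.64 in *Hox13*-/-. Downstream of it, the intergenic peak at +84.4 kb (chr10:42173834-42174137) had rLog values of 4.89 and 5.00 in WT and of 5.47 and 5.42 in *Hox13*-/-, a difference of 0.50 that held without each library. In its introns the peak at +11.6 kb was lower, with rLog values of 5.38 and 5.16 in WT and of 4.73 and 4.85 in *Hox13*-/-, by −0.48, lost without WT replicate 1 or *Hox13*-/- replicate 1 (−0.58 to −0.37). The peak at +54.9 kb was lower by −0.34, lost without each library in turn (−0.37 to −0.31). *Foxn2* had a lower promoter peak (−0.35, with a call that held only without WT replicate 2, −0.47 to −0.24) and a higher peak at +53.5 kb (0.39, lost without WT replicate 1 or *Hox13*-/- replicate 2, 0.31 to 0.47). *Foxj3* had 2 higher peaks, at −73.8 kb (0.38, lost without either WT library or *Hox13*-/- replicate 2, 0.29 to 0.46) and −2.0 kb (0.35, lost without each library in turn, 0.33 to 0.37), and under quantile normalization neither was called (0.33 and 0.30), nor was the latter under median centring (0.31). *Foxj2* had a lower peak in an intron of the glucose transporter gene *Slc2a3* (−0.38, lost without WT replicate 1 or *Hox13*-/- replicate 2, −0.47 to −0.29). *Foxm1*, a driver of mitosis, and *Foxk2* had no call among their own promoter and distal peaks.

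The 17 genes of other lineages had 133 peaks, 5 lower (3.76%) and 9 higher (6.77%), where all peaks had 8.31% and 11.4%. Under median centring 9 were lower and 4 higher. Most of these genes had no promoter peak, since 13 of the 18 forkhead genes without one are in this group. Near *Foxn4*, a factor of retinal and spinal progenitors, the peak at −11.3 kb (chr5:114284970-114285274), which is nearest to the start of *Myo1h*, had rLog values of 4.58 and 4.42 in WT and of 5.29 and 5.10 in *Hox13*-/-. The genotypes were well apart and the difference of 0.70 (SE 0.13, limma adjusted p = 3.9e-06) held without each library. In the window of *Foxj1*, the regulator of motile cilia, the promoter of *Exoc7*, which encodes an exocyst subunit, was lower (chr11:116306520-116306894), at 6.01 and 5.99 in WT and at 5.39 and 5.31 in *Hox13*-/-. That difference of −0.65 (SE 0.13, limma adjusted p = 1.6e-05) held without each library, and it lies 28.7 kb from *Foxj1*, whose 3 promoter peaks were not called.

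*Foxl2*, the ovarian factor, had 3 calls, a higher peak at −47.3 kb (0.33), a lower one at +27.9 kb (−0.38) and a lower promoter of *Faim* (−0.44). They were lost without either WT library or *Hox13*-/- replicate 2 (0.25 to 0.40), without WT replicate 2 or either *Hox13*-/- library (−0.60 to −0.16), and without WT replicate 2 or *Hox13*-/- replicate 1 (−0.56 to −0.31), and the first was also lost under median centring (0.29). *Foxi1*, a factor of ionocytes and the inner ear, had higher peaks in introns of *Dock2* at −63.5 kb (0.48) and −76.3 kb (0.46), lost without WT replicate 2 or *Hox13*-/- replicate 2 (0.41 to 0.54) and without WT replicate 1 or *Hox13*-/- replicate 1 (0.33 to 0.60). *Foxi3*, a factor of ectodermal placodes, had a higher peak at −22.6 kb (0.45, lost without WT replicate 2 or *Hox13*-/- replicate 1, 0.33 to 0.57). Further calls lay near *Foxb1* (0.34) and *Foxb2* (0.28) and at promoters of other genes near *Foxh1* (0.35), *Foxj1* (−0.42), *Foxm1* (−0.43 and −0.37), *Foxn1* (−0.40) and *Foxn4* (0.34), and each of these was lost without at least 2 of the libraries. Median centring also removed the calls near *Foxb1* (0.30), *Foxb2* (0.25) and *Foxh1* (0.32) and at the other gene's promoter near *Foxn4* (0.31). Quantile normalization removed those near *Foxb1* (0.32) and *Foxh1* (0.33) and that promoter near *Foxn4* (0.30). *Foxr1* had 22 peaks in its window and no call.

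Levels at promoters were compared per length, as mean WT rLog minus the log2 of the peak length in kb, for the strongest promoter peak of each of 23 genes. *Foxa3* (8.62, the peak beside *Sympk*), *Foxn2* (8.14), *Foxo6* (7.99), *Foxk2* (7.91) and *Foxn3* (7.90) were highest on this scale. *Foxc1* (7.64) led the mesenchymal genes, whereas *Foxc2* (6.32), *Foxe3* (6.02) and *Foxf2* (5.59) were lowest. WT replicate ranges overlapped in 12 of the 22 pairs of neighbours in this order, such as *Foxk1* with *Foxc1* and each step from *Foxc1* down to *Foxo3*. The difference was negative at 20 of the 23 peaks, where it was negative at 74.0% of all promoter peaks, and at 10 of the 23 its sign changed when a library was left out. Of the 20, 3 were lower (*Foxa3*, *Foxo6* and *Foxo1*), and the exceptions were *Foxm1* (0.05), *Foxo3* (0.03) and *Foxd1* (0.04). The sign of the last 2 changed under another scaling.

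**Figure D5:**
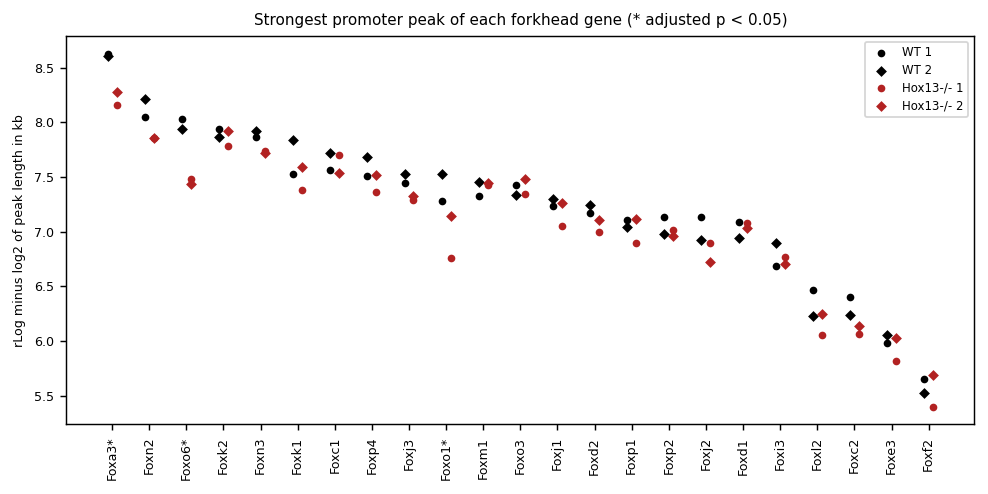
rLog minus log2 of peak length in kb (y axis) in the 4 libraries for the strongest promoter peak of each forkhead gene (x axis), ordered by the WT mean. WT libraries are dark and *Hox13*-/- libraries red, circles are replicate 1 and diamonds replicate 2, and an asterisk marks an adjusted p under 0.05; *Foxa3* is highest at 8.62 in WT and *Foxf2* lowest at 5.59.

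Of the 51 called distal peaks, 19 lay in introns of the forkhead gene, 20 were intergenic, 11 lay in introns of other genes and 1 in an exon. A forkhead start was the nearest protein-coding start at 41 of them, where this held for 157 of the 249 distal forkhead peaks. Over all called forkhead peaks, 17 of the 33 lower ones (51.5%) had been found by the peak caller in no *Hox13*-/- library, and 22 of the 35 higher ones (62.9%) in no WT library. These shares were 50.9% and 58.9% over all called peaks, and they come from the same reads as the differences. The HOX13 words, which are CAATAAA together with CCATAAA and also TCGTAAA, were searched on both strands in the 300 bp at the middle of each peak. At least 1 of them was found in 16.9% of distal forkhead peaks and in 17.1% of all distal peaks. Lower distal forkhead peaks held a word in 5 of 18 cases (27.8%), where 30.3% of all lower distal peaks did, and higher ones in 7 of 33 (21.2%), where 17.7% of all higher distal peaks did. TAATAAA was in 6.43% of distal forkhead peaks and in 8.96% of all distal peaks. It was in 4 of the 18 lower ones (22.2%, where 15.5% of all lower distal peaks held it), but these include the *Foxf2* window from which the word was taken, and it was in 6.06% of the higher ones, where 9.12% of all higher distal peaks held it. GTAAACA, the core word of forkhead proteins themselves, was found in 7.23% of distal forkhead peaks and in 5.82% of all distal peaks, and it shares its first letters, GTAAA, with the end of the third HOX13 word, so a site can count for both. These shares describe letters in a window, and the distal forkhead peaks had shares near those of all distal peaks.

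The pathway that acts on FoxO proteins was described by 18 genes of IGF, PI3K and AKT signalling, with the same 100 kb rule. They had 252 peaks, 21 lower (8.33%) and 13 higher (5.16%), where the shares over all peaks were 8.31% and 11.4%. The ligand gene *Igf1* and the regulatory subunit gene *Pik3r1* held the largest increases. At +67.9 kb from *Pik3r1* (chr13:101624232-101624584) rLog was 4.54 and 4.77 in WT and 5.79 and 5.64 in *Hox13*-/-, a difference of 1.07 (SE 0.13, limma adjusted p = 1.0e-13). At the *Igf1* promoter (chr10:87860454-87861155) rLog was 6.66 and 7.02 in WT and 7.59 and 7.63 in *Hox13*-/-, a difference of 0.77, and the peaks at +11.2 and +11.7 kb were higher by 0.88 and 0.93. These 4 calls held without each library. Near the receptor substrate gene *Irs1* the peak at −70.1 kb was lower by −0.56, with rLog values of 5.20 and 4.81 in WT and of 4.48 and 4.41 in *Hox13*-/-, and its call was lost without WT replicate 1 (−0.76 to −0.36).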

How the data were processed

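ATAC-seq was analysed in 2 WT and 2 *Hox13*-/- libraries. Per the submitters' processing notes and the study's methods, paired-end reads were aligned to mm10 with Bowtie2 2.3.1, handled with SAMtools 1.4.1 and HOMER 4.9.1, and peaks were called per library with MACS2 2.1.1.20160309 and merged. Handling of duplicates and the Tn5 offset is not given in the sources used here. The authors deposited rLog values from DESeq2, which are on a log2 scale, for 61954 peaks. The deposited table also holds the authors' log2 fold change, p-value and adjusted p-value per peak, which were not used. Read counts are not used here, so no counting interval is given.

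Members were found with GENCODE M21 gene starts on mm10, and sequence was read from GRCm38. limma 3.58.1 in R 4.3.3 fitted genotype with a variance trend to all peaks, two-sided, with Benjamini-Hochberg adjustment; the procedure was tested on simulated data. With 2 libraries per genotype no permutation can reach p under 0.05, so p uses a spread pooled over peaks. Replicates differed by a root mean square of 0.180 in WT and 0.176 in *Hox13*-/-. The peaks, gene groups, marker genes, words and pathway list were chosen with earlier results of these data known. Named peaks were the strongest promoter peak per gene, the 10 largest called differences in each direction with genotypes apart, those beyond 1, and the calls of genes with at least 3; other called peaks were named after their values were seen. Alternatives were median centring, quantile normalization, no trend, a filter that kept the 75% or the 50% of peaks with the highest mean signal, a replicate block, an adjusted p under 0.01, a 50 kb window, 1 start per gene, promoters within 2 kb, and leaving out each library. TAATAAA was added after seeing the data. Tables were handled in Python 3.11.15 with pandas 2.3.3 and numpy 2.4.6, and figures drawn with matplotlib 3.10.9. The 2 proximal libraries were not analysed here.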

Additional observations from a re-analysis of the deposited data

How the results depend on the processing

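With 2 libraries per genotype, calls were lost when a library was left out and depended on the threshold. A fit without a library has 1 library in a genotype and is less precise by design. A call can then be lost with little change in its difference. At *Foxd1* −18.0 kb, for example, the difference ran from −0.38 to −0.34 over these fits. The part of single libraries in the losses was not tested. Calls over all peaks of the series fell in both directions too. Without each library in turn, lower forkhead peaks numbered 11 to 22 and higher ones 20 to 27, lower promoter peaks 2 to 5, distal peaks 8 to 12 lower and 19 to 26 higher, and peaks beyond 1 numbered 0 to 1 in each direction. The medians then ran from −0.144 to −0.077 for promoter and from −0.014 to 0.035 for distal peaks, and the pathway list had 10 to 15 lower and 8 to 10 higher calls. Of the 68 calls 33 remained without WT replicate 1, 37 without WT replicate 2, 35 without *Hox13*-/- replicate 1 and 39 without *Hox13*-/- replicate 2, and 0 changed sign under any of these.

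With an adjusted p under 0.01 there were 14 lower and 21 higher forkhead peaks, 2 lower promoter peaks, 8 lower and 21 higher distal peaks and 11 lower list peaks. In the upper 50% of peaks by mean signal, where fewer peaks are tested, 20 forkhead peaks were higher, 11 distal peaks lower and 19 higher, and 13 list peaks lower. A 50 kb window, which holds fewer peaks, left 20 lower. Promoters within 2 kb included 2 higher peaks. Median centring gave 28 lower distal peaks, a distal median of −0.022 and 1 peak lower beyond 1, as did quantile normalization (1), and 1 start per gene gave a distal median of −0.012. The median difference of all peaks was −0.01 as deposited, −0.04 after median centring and −0.01 after quantile normalization.

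Some strongest promoter peaks, none of them called, changed sign. Under quantile normalization the difference was −0.0095 at *Foxd1* and under median centring −0.0010 at *Foxo3*. Without each library in turn it ran from −0.101 to 0.067 at *Foxc1*, −0.032 to 0.110 at *Foxd1*, −0.199 to 0.0093 at *Foxe3*, −0.19 to 0.103 at *Foxf2*, −0.164 to 0.053 at *Foxi3*, −0.118 to 0.020 at *Foxk2*, −0.015 to 0.109 at *Foxm1*, −0.036 to 0.103 at *Foxo3*, −0.183 to 0.037 at *Foxp1* and −0.147 to 0.010 at *Foxp2*.

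Replicate numbers are shared between genotypes in the labels only, and the deviations of same-numbered libraries from their group means were not correlated (r = −0.0106 over peaks). With the replicate number as a block there were 33 lower and 36 higher forkhead peaks, and 66 of the 68 calls remained.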
